A study of Drosophila melanogaster with 80 samples.

Results

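Adult males of Drosophila melanogaster that had lived through 12 temperature cycles were compared with males that had lived through 6, at the level of whole-body messenger RNA. The members were all male libraries of the fluctuating regime, 16 of the 80 libraries of the study, with 8 at 12 cycles and 8 at 6 cycles. Each set of 8 held 4 libraries taken at the high point of the cycle and 4 taken at the low point. The fluctuating regime had a mean of 19 °C and an amplitude of 8 °C, so the flies passed between 27 °C at the high point and 11 °C at the low point. Comparison groups were 16 males held at a constant 19 °C and 16 females of the fluctuating regime, each sampled at the same points and cycles. Treatment ran over 13 days of adult life, and flies were moved to fresh vials on alternate days. The labels name no genotype or strain, give no adult age at the start of treatment and do not say whether males and females shared vials. Later sampling therefore means older flies, longer exposure to the cycle and other libraries at once, and these cannot be told apart. Nothing in the labels says how many flies made a library, so p-values measure the spread between libraries only.

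A male fly is a body of a few large tissues, and a change in whole-body messenger RNA can come from any of them. Thoracic muscle is packed with mitochondria and contractile proteins, the fat body stores lipid and glycogen and makes immune peptides, the midgut secretes digestive enzymes, and the Malpighian tubules excrete. The testis makes sperm throughout adult life, while the accessory gland and the ejaculatory duct and bulb secrete the proteins of seminal fluid. In the first days of adult life the cuticle hardens, the flight muscle matures and larval storage proteins are used up, whereas ageing of flies is classically linked to higher immune and lower mitochondrial gene expression. In whole flies, fewer cells of a type and less RNA per cell cannot be told apart.

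Levels of single genes are CPM, counts per 1000000 counts of a library, after edgeR's TMM scaling. Marker levels in this paragraph and summed levels of lists are CPM without that scaling. The scaling factors were 0.997 to 1.057 at 6 cycles and 0.927 to 1.013 at 12 cycles. Unscaled sums therefore tend to make falls look larger and rises smaller. Overlap of the sums was not examined after scaling. Library totals, in units of 1000000 counts, were 87.1 to 122.6 with a median of 100.1. The median was 92.3 at 6 cycles and 112 at 12 cycles, so depth moved with the groups. Thinning every library to the lowest total left 5300 called genes against 5326. Markers fitted the label of whole males: the summed level of 10 testis markers was 3050 to 4360 CPM over the 16 libraries, that of 6 accessory gland markers 759 to 2400 CPM, and lncRNA:roX1, a male dosage compensation RNA, lay at 322 to 488 CPM. The 7 markers of the ovary and female fat body together gave 17.4 to 75.9 CPM in 15 libraries and 186 CPM in the low-point library numbered 5 at 12 cycles. Of 5 larval markers, the salivary gland genes Sgs3 and Sgs4 were at or near 0 and the storage protein Lsp2 was at 825 to 2050 CPM at 6 cycles and 66.4 to 986 CPM at 12 cycles, which did not pass the test (edgeR adjusted p = 0.0755). On the principal components of all genes, the first (26.8% of variance) separated the points and the second (16.6%) separated 6 from 12 cycles without overlap. The third (8.2%) set apart the high-point library numbered 1 at 6 cycles and the low-point library numbered 5 at 12 cycles. The count over all genes and those of oxidative phosphorylation and ribosomal protein genes are also given without this pair. Among constant males, the low-point library numbered 2 at 6 cycles held 16900 CPM of the female markers against 7.75 to 64.4 CPM in the other constant males, and comparisons with constant males are given without it.

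Of 15396 genes tested, 5326 (34.6%) changed between 6 and 12 cycles at an adjusted p of 0.05 (edgeR quasi-likelihood test, Benjamini-Hochberg adjustment). Of these 2876 (18.7% of those tested) were higher and 2450 (15.9%) lower at 12 cycles. With total counts in place of edgeR's TMM scaling the count was 5020, but split into 1549 higher and 3471 lower, because the median of all genes moved from 0.04 to -0.05 on the log2 scale. Counts under total-count scaling are therefore given beside the lists with small shifts. List counts below are to be read against the shares of all genes given here. Most changes were modest. The median size among called genes was 0.29 on the log2 scale, 86.6% were under 1.5-fold, and 156 genes were at least 2-fold higher and 65 at least 2-fold lower. In 818 genes (5.31%) the 8 libraries of one age did not overlap the 8 of the other. Leaving out each library in turn gave 4606 to 5850 called genes, and 4235 of the 5326 (79.5%) were called in each of these fits.

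Among the genes that fell most steeply, Scp1, a sarcoplasmic calcium-binding protein, had the smallest p of all (BDGP6.54, chromosome 2R, 2932595 to 2968052, minus strand). Its level was 986 to 1170 CPM (median 1060) at 6 cycles and 264 to 335 CPM (median 275) at 12 cycles, with no overlap. That is a log2 fold change of -1.90 (SE 0.0587, edgeR adjusted p = 3.15e-12). CG7214 (chromosome 2L, 7743682 to 7744839, minus strand) went from 10.6 to 16.2 CPM (median 13.5) at 6 cycles to 1.22 to 2.65 CPM (median 1.71) at 12 cycles. Its log2 fold change of -2.96 (SE 0.146, edgeR adjusted p = 1.97e-09) was the largest fall among genes with a mean of at least 5 CPM. CG34327 fell by 1.77 and CG7203 by 1.38 on the log2 scale. The opa-repeat gene msopa, known for expression in males, dropped from a median of 181 CPM to 61.8 CPM without overlap. Lsp1beta, a larval serum storage protein that persists into young adults, fell from a median of 257 CPM to 83.7 CPM, with overlapping ranges (131 to 600 against 17.6 to 262 CPM). The odorant-binding protein gene Obp56d had medians of 363 and 69.7 CPM, but 3 of the 8 older libraries lay at 226, 318 and 431 CPM against 57.2 to 69.9 CPM in the other 5, and the call (edgeR adjusted p = 0.0339) was lost in 7 of the 16 fits that leave out a library. The non-coding lncRNA:CR43239 fell by 1.25 on the log2 scale.

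**Figure D1:**
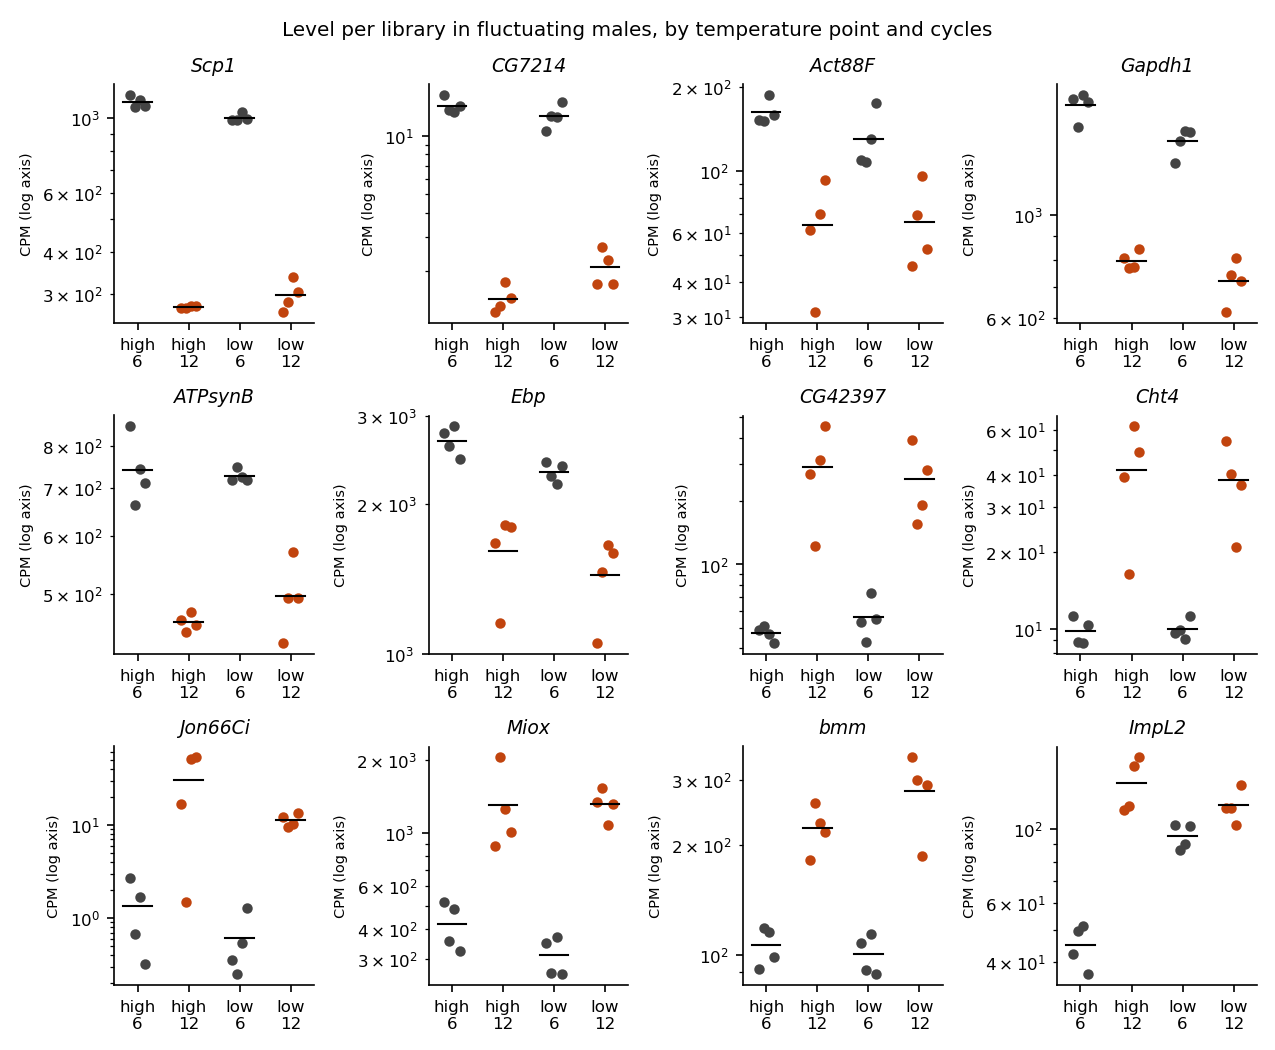
Level of 12 genes in each of the 16 fluctuating male libraries, in CPM on a log axis, by temperature point and number of cycles. Points are libraries (grey at 6 cycles, orange at 12) and bars are means of 4 libraries. Scp1 holds 264 to 335 CPM in the 12-cycle libraries against 986 to 1170 CPM at 6 cycles, while ImpL2 is lowest in the high-point libraries of 6 cycles.

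Muscle genes were lower after 12 cycles. Of 30 muscle genes tested, 17 fell and 2 rose, and the median log2 fold change was -0.25 against 0.04 for all genes. Act88F, the actin of the indirect flight muscle, lay at 107 to 186 CPM (median 151) at 6 cycles and 31.2 to 95.4 CPM (median 65.5) at 12 cycles. This is a fall without overlap of 1.16 on the log2 scale (SE 0.195, edgeR adjusted p = 0.000311). Act79B, an actin of tubular muscles, went from a median of 643 CPM to 309 CPM. TpnC41C, a troponin C, went from 119 to 57.5 CPM, and fln, which encodes the flight muscle protein flightin, from 157 to 86.3 CPM, each again without overlap. Other sarcomere genes that fell had smaller changes, such as Mlc2 at -0.52 and wupA at -0.21. The members that rose, named after their values were seen, were Act57B (0.42) and TpnC73F (0.44), an actin and a troponin C of other muscles.

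Energy metabolism of mitochondria moved with it. Of 91 nuclear genes of oxidative phosphorylation, 76 fell and 0 rose by edgeR, at a median of -0.31. DESeq2 gave 77 and 0, and 0 were higher at an unadjusted threshold of 0.05. Their summed level, unscaled, was 33190 to 42140 CPM at 6 cycles and 25090 to 30930 CPM at 12 cycles, without overlap. ATPsynB, a subunit of ATP synthase, lay at 663 to 850 CPM at 6 cycles and 428 to 571 CPM at 12 cycles (log2 fold change -0.62, SE 0.061, edgeR adjusted p = 4.44e-06). ATPsynC, the subunit of its rotor ring, fell by 0.78 with overlapping ranges. The mitochondrial phosphate carrier Mpcp1 dropped from a median of 572 CPM to 247 CPM, and the mitochondrial glycerophosphate oxidase Gpo1 from 394 to 235 CPM, each without overlap. Without the pair of libraries apart on the third component the oxidative phosphorylation count was 76 lower and 4 higher.

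Glycolysis and sugar storage split in both directions, with 10 of 29 genes higher and 11 lower, or 8 and 11 with total counts. Among those that fell was Gapdh1, a glycolytic enzyme, at 1290 to 1800 CPM (median 1520) in the younger and 618 to 844 CPM (median 769) in the older males. Its log2 fold change was -1.05 (SE 0.0589, edgeR adjusted p = 1.18e-08). Other glycolytic enzymes that fell were Pgk (-0.44), Ald1 (-0.30) and PyK (-0.13). Higher levels were found for Hex-C, a hexokinase of the fat body (medians 222 and 349 CPM, no overlap), and for Pepck1 (22.7 and 37.4 CPM, overlapping), which acts in gluconeogenesis. Mal-A1, a maltase of the gut, had medians of 2050 and 3390 CPM without overlap.

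Digestive enzymes rose most broadly of the gut genes. Of 53 tested, 38 rose and 1 fell, with a median of 0.60, and total-count scaling gave 37 and 1. The summed level of the list was 14410 to 23500 CPM at 6 cycles and 22520 to 34620 CPM at 12 cycles. Jon66Ci, a serine protease of the Jonah family (chromosome 3L, 8391540 to 8392377, plus strand), had the largest rise among genes with a mean of at least 5 CPM. It lay at 0.251 to 2.67 CPM (median 0.61) at 6 cycles and 1.49 to 53.2 CPM (median 12.8) at 12 cycles, and only the high-point library numbered 6 of the older males overlapped. The log2 fold change was 4.40 (SE 0.60, edgeR adjusted p = 6.54e-05). Its neighbour Jon66Cii (3L, 8392820 to 8393649, minus strand) changed by 4.46 at lower levels, and Jon25Bii, with medians of 78.6 and 195 CPM, by 1.69. Jonah proteases form a family of related copies, so the division of reads among them is uncertain. The trypsin alphaTry (0.60) and the amylase Amy-p (0.72) also rose. The member that fell, mag (-0.67), encodes a lipase and is also in the lipid list. Muc68E, a mucin, rose from 20.2 to 44.6 CPM at 6 cycles to 71.0 to 169 CPM at 12 cycles without overlap. Cht4, a chitinase, had 8.78 to 11.2 CPM in the younger males and 16.4 to 62.1 CPM in the older.

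Among the wider set of 21 gut and peritrophic matrix genes, 9 rose and 5 fell, or 9 and 7 with total counts. With TMM this is 66.7% called, against 34.6% of all genes. Those that fell included obst-A, a chitin-binding protein also of the cuticle, with medians of 8.39 and 3.21 CPM. Also lower were PGRP-SC1a and PGRP-SC1b, amidases that cut bacterial peptidoglycan. PGRP-SC1a went from 6.32 to 29.4 CPM (median 13.0) down to 2.30 to 13.7 CPM (median 5.92), and PGRP-SC1b showed a like log2 fold change of -1.21. These copies are nearly identical, so reads cannot be divided between them with confidence.

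Immune genes that passed were more often higher, with wide spread between libraries. Of 34 antimicrobial and Toll-induced peptide genes, 10 rose and 2 fell (Drsl4 at -0.58 and Drsl5 at -0.48), around a median of 0.49. The other 22 did not pass, and the share called was 35.3% against 34.6% of all genes. Drsl3, a drosomycin-like peptide, lay at 0.0742 to 1.23 CPM at 6 cycles and 1.51 to 11.3 CPM at 12 cycles, a log2 fold change of 4.30 (SE 0.589, edgeR adjusted p = 6.68e-05). Drsl2 changed by 3.91, but its levels spanned 0.818 to 121 CPM at 12 cycles, and the call was lost in 1 of the 16 fits that leave out a library. Dro, which encodes drosocin, had medians of 9.67 and 20.2 CPM with 1 older high-point library at 211 CPM. Its adjusted p of 0.0498 by edgeR was lost in 11 of those 16 fits, and the p of Mtk, which encodes metchnikowin (0.0313), in 8. The summed level of the list overlapped widely (1693 to 3101 against 1970 to 4096 CPM). Of 37 genes of immune recognition and signalling, 17 rose and 2 fell, the latter being the 2 PGRP-SC1 genes. Total-count scaling gave 8 and 3. The share called with TMM was 51.4%, against 34.6% of all genes. LysX, a lysozyme, rose by 1.14. Blood cell genes went 7 higher and 2 lower of 27 (5 and 4 with total counts), and the pair that fell were phagocytosis receptors, NimC4 (-1.21) and eater (-0.67). Of the blood cell genes 33.3% were called, close to the 34.6% of all genes.

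Ribosomal protein genes shifted as a block of small changes. Of 83 tested, 72 rose and 2 fell (RpS28a at -0.44 and RpL10Aa at -0.23), with a median of 0.26. Under total-count scaling 50 rose and 4 fell at a median of 0.17. RpL9 had 584 to 741 CPM (median 614) at 6 cycles and 717 to 870 CPM (median 806) at 12 cycles, and only the high-point library numbered 1 of the younger males reached into the range of the older. RpS20 rose from a median of 387 to 491 CPM, and eEF1gamma, a translation elongation factor, from 631 to 848 CPM without overlap. At the low point 72 ribosomal protein genes were called higher and at the high point 11, against 13% and 6.78% of all genes. Yet 0 ribosomal protein genes passed edgeR's test of the difference between points, and 4 did so without adjustment. The summed level of the list was 53240 to 72150 CPM in the 4 younger high-point libraries, the top value being library 1. Without this library and low-point library 5, 75 rose and 2 fell. Ribosome biogenesis genes gave 12 higher and 1 lower (Rrp6, -0.20) of 33, but 3 and 1 with total counts. An example is pit, an RNA helicase, at 0.31. Of the biogenesis list 39.4% were called, against 34.6% of all genes.

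Genes of the male reproductive tract were lower. Of 65 seminal fluid genes of the accessory gland, 38 fell and 3 rose, with a median of -0.41. Their summed level, unscaled, was 11230 to 14290 CPM at 6 cycles and 6227 to 9676 CPM at 12 cycles, without overlap. Acp76A, a serpin of seminal fluid, lay at 71.9 to 125 CPM (median 103) in the younger males and 21.5 to 82.6 CPM (median 45.1) in the older (log2 fold change -1.14, SE 0.209, edgeR adjusted p = 0.000643). Acp53C14c went from a median of 19.0 CPM to 9.91 CPM. The members that rose, by small amounts, were lectin-46Ca (0.20), frma (0.34) and hdly (0.13). Of 10 duct and bulb genes, 4 fell and 0 rose, led by Ebp (medians 2440 and 1620 CPM) and EbpII (2030 and 1350 CPM), proteins of the ejaculatory bulb that did not overlap between the ages. The share called in this short list, 40%, is near the 34.6% of all genes.

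Sperm genes fell by less but together. Of 59 spermatid and sperm genes 41 fell and 0 rose by edgeR, with a median of -0.22, and 1 was higher at an unadjusted threshold of 0.05. DESeq2 gave 43 and 0, and total-count scaling 49 and 0. Examples are the testis proteasome subunit Prosalpha4T2 (39.6 to 30.3 CPM in the medians), soti, a gene of sperm individualisation (117 to 91.4 CPM), and ProtA, a protamine of sperm chromatin (81.7 to 65.7 CPM), each without overlap. Of 27 genes of testis stem cells and meiosis 5 fell and 1 rose, or 6 and 1 with total counts. This is 22.2% called, below the 34.6% of all genes. Those that fell included twe (-0.30), a phosphatase needed for meiosis, and bol (-0.21), while the member that rose was the piRNA gene aub (0.32).

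**Figure D2:**
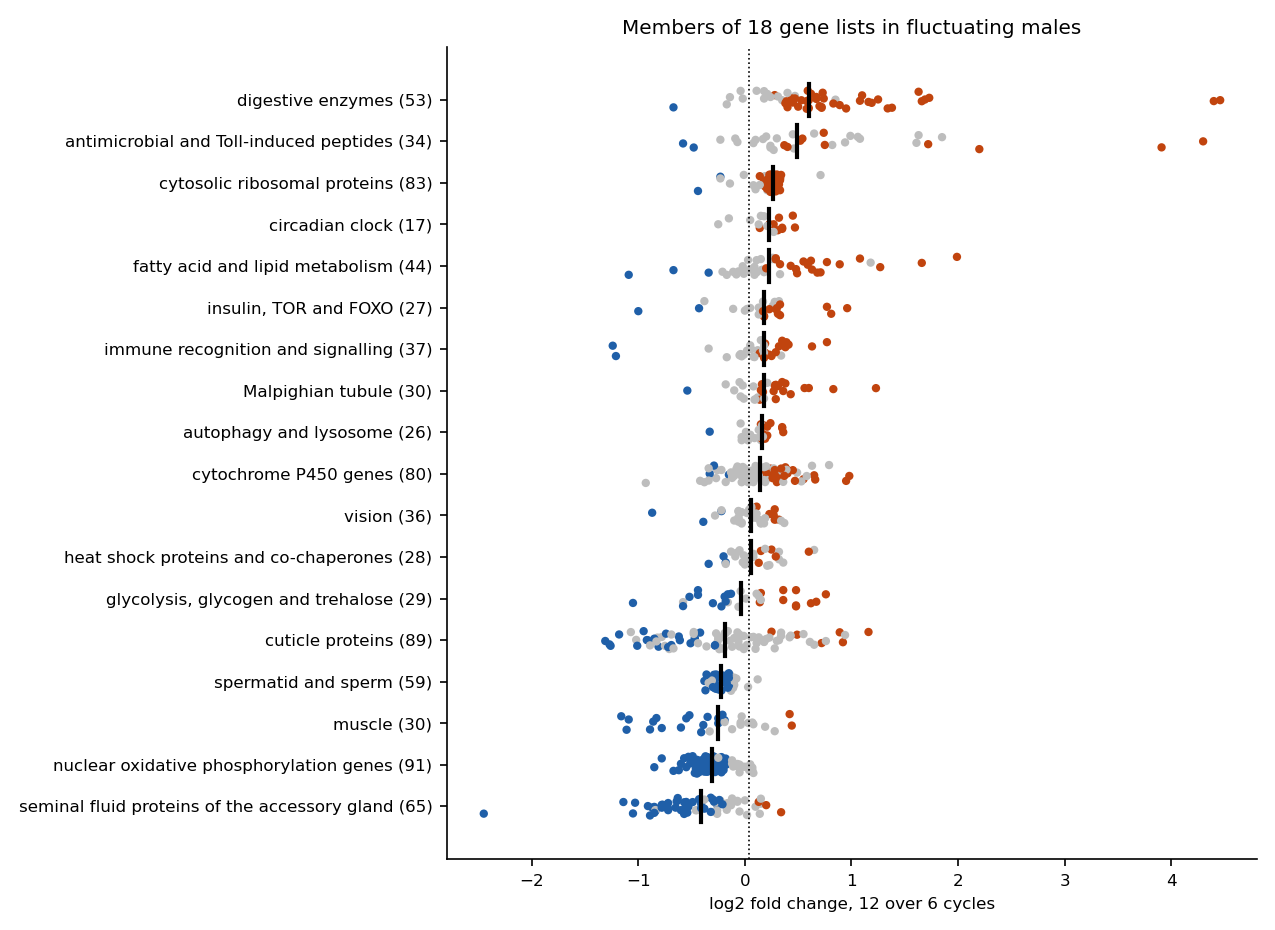
Log2 fold change from 6 to 12 cycles of each tested member of 18 gene lists in fluctuating males, with the number of members tested in parentheses. Orange and blue points passed the test upwards and downwards, grey points did not, black bars are list medians and the dotted line is the median of all genes (0.04). Digestive enzymes have the highest median of these lists (0.60) and seminal fluid proteins the lowest (-0.41).

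Lipid genes were more often higher. Of 44 tested, 19 rose and 3 fell (18 and 4 with total counts), at a median of 0.23, and the summed level was 13740 to 18290 CPM at 6 cycles and 18870 to 20310 CPM at 12 cycles, without overlap. The triglyceride lipase gene bmm (brummer) went from 88.8 to 119 CPM (median 103) to 182 to 346 CPM (median 244), a log2 fold change of 1.27 (SE 0.124, edgeR adjusted p = 4.24e-06). Lip3, of the acid lipase family, changed by 1.66, and Npc2e, a sterol-binding protein, by 1.99. FASN1 (0.63) and ACC (0.77), the enzymes of fatty acid synthesis, also rose. Lsd-1, a perilipin that coats lipid droplets, went the other way by -1.09. The low-point libraries held 32.9, 35.6, 62.8 and 92.7 CPM at 12 cycles against 180, 204, 213 and 284 CPM at 6 cycles. At the high point Lsd-1 was at 215 to 246 CPM in the younger and 153 to 253 CPM in the older males, and the difference between points missed the threshold (1.76 on the log2 scale, SE 0.37, edgeR adjusted p = 0.0637).

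Insulin and TOR pathway genes went 13 higher and 2 lower of 27, which is 55.6% called against 34.6% of all genes. Under total-count scaling it was 6 and 4 of 27, where 5020 of all 15396 genes were called. ImpL2, a secreted protein that binds and restrains insulin-like peptides (chromosome 3L, 4224006 to 4236147, minus strand), rose from a median of 68.9 to 116 CPM. The insulin receptor InR had medians of 36.0 and 61.5 CPM, and Thor, which encodes the translation inhibitor 4E-BP, 155 and 249 CPM. In flies both InR and Thor are known targets of the transcription factor FOXO. The genes that fell were Ilp3 (-0.43), an insulin-like peptide of the brain, and sug, a sugar-responsive transcription factor with medians of 24.9 and 10.2 CPM. The list of female genes (yolk, vitelline membrane and chorion) had 3 of 26 higher and 0 lower (11.5% called, against 34.6% of all genes). Of these Cp7Fc (1.65) and Cp18 (1.33) lost the call in 5 and 4 of the 16 fits that leave out a library, and their level moved with the low-point library that held most female transcripts. The nuclear receptor gene Eip75B, from a list of juvenile hormone and ecdysone genes with 7 higher and 0 lower of 26 (5 and 0 with total counts), lay at 55.2 to 100 CPM at 6 cycles and 116 to 141 CPM at 12 cycles. That hormone list had 26.9% called, below the 34.6% of all genes.

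Storage, excretion and detoxification changed as follows. Of 18 fat body and storage genes 9 rose and 2 fell (6 and 3 with total counts), the latter being Lsp1beta and Lsp1gamma (medians 3.07 and 0.812 CPM, no overlap). With TMM this is 61.1% called, against 34.6% of all genes. Of 30 Malpighian tubule genes 17 rose and 1 fell (salt, -0.54), or 11 and 3 with total counts. Uro, urate oxidase, rose by 1.23 and ry, xanthine dehydrogenase, by 0.83 (37.8 to 62.5 CPM against 70.5 to 130 CPM). The tryptophan oxygenase gene v rose by 0.60. Miox, a myo-inositol oxygenase, had 260 to 516 CPM at 6 cycles and 880 to 2050 CPM at 12 cycles (log2 fold change 1.86, SE 0.172, edgeR adjusted p = 2.96e-06). Sardh, sarcosine dehydrogenase, changed by 1.96 without overlap.

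Of 80 cytochrome P450 genes 22 rose and 3 fell, or 13 and 8 with total counts. Cyp28d1 lay at 156 to 234 CPM in the younger and 240 to 381 CPM in the older males, and Cyp6t3 rose by 0.95. Among 29 glutathione transferases 1 rose (GstD4, 1.18) and 0 fell by edgeR, while 6 were higher and 2 lower at an unadjusted threshold of 0.05 and DESeq2 called 5 higher and 1 lower. Metallothionein genes went 3 higher and 1 lower of 7, or 1 and 1 with total counts. MtnA, at medians of 1150 and 1750 CPM, kept its call without each library, whereas MtnE, MTF-1 and MtnF lost theirs in 10, 7 and 4 of the 16 fits that leave out a library. Of 24 redox genes 6 rose and 3 fell, or 4 and 5 with total counts, and cnc, the fly Nrf2 homologue, rose by 0.33. The share called was 31.2% of P450 genes, 3.45% of glutathione transferases, 57.1% of metallothionein genes and 37.5% of redox genes, against 34.6% of all genes.

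Cuticle protein genes, 89 of which were tested out of 126, gave 21 lower and 6 higher (25 and 4 with total counts), at a median of -0.19. This is 30.3% called, against 34.6% of all genes. Cpr47Ea went from 2.42 to 4.11 CPM to 0.757 to 2.01 CPM. The other 37 members did not pass the filter on low counts.

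Of 17 clock genes 9 rose and 0 fell with TMM scaling, and 7 rose and 2 fell with total counts. With TMM this is 52.9% called, against 34.6% of all genes. The rise took in tim (0.45), vri (0.35), Pdp1 (0.35) and cwo (0.47), which belong to interlocked feedback loops. Only Pdp1 of these did not overlap (207 to 278 against 303 to 347 CPM). These ranges take both points together, whereas the test has the point as covariate. The hour of sampling is fixed by the point of the cycle as far as the labels say. Vision genes went 7 higher and 3 lower of 36 (4 and 8 with total counts), and the falls included retinin (295 to 165 CPM in the medians), a protein of the corneal lens, and chp (-0.39), of photoreceptor membranes. Of 36 neuronal genes 8 rose and 3 fell, or 3 and 7 with total counts. AstA, a gut and brain peptide, rose by 0.38, and ple, tyrosine hydroxylase of dopamine and cuticle synthesis, fell by 0.62. Nplp3, a neuropeptide-like precursor, went from 199 to 263 CPM to 85.7 to 196 CPM. For vision and neuronal genes the sign of the median changed with scaling. Their shares called, 27.8% and 30.6%, lay below the 34.6% of all genes.

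Chaperone genes moved little in the median over both points. Of 28 heat shock and co-chaperone genes 5 rose and 3 fell, at a median of 0.06, and under total-count scaling 3 rose and 7 fell at -0.03. At the high point 5 rose and 2 fell, where 14.9% of all genes were called. Their summed level there, unscaled, was 7008 to 8036 CPM at 6 cycles and 8052 to 8457 CPM at 12 cycles. These ranges nearly touch and rest on 4 libraries each. At the low point 2 rose and 3 fell, where 22.3% of all genes were called, with overlapping sums (4904 to 5125 against 4478 to 5054 CPM). The test of the difference between points called 0 of the list, with 4 higher and 0 lower at the high point at an unadjusted threshold of 0.05. Over both points l(2)efl, which encodes a small heat shock protein, rose by 0.60 (medians 99.4 and 156 CPM) and Hsp23 fell by 0.34 (34.1 and 26.7 CPM). Fst (Frost), known for induction in the cold, rose by 2.0 on the log2 scale, from 14.8 to 63.8 CPM to 44.7 to 281 CPM. Of 21 endoplasmic reticulum chaperone and unfolded-protein genes 5 rose and 0 fell, of 32 proteasome genes 5 and 0, of 26 autophagy and lysosome genes 12 and 1, and of 25 apoptosis and DNA damage genes 6 and 0. Examples are Atg13 (0.35) and puc (0.44), a phosphatase of the JNK pathway. V-ATPase and sodium pump genes gave 13 higher and 10 lower of 36, and DNA replication genes 6 and 6 of 39. Under total-count scaling these were 2 and 2 for the endoplasmic reticulum list, 1 and 1 for the proteasome, 4 and 1 for autophagy, 3 and 0 for apoptosis, 9 and 13 for the V-ATPase list and 1 and 6 for DNA replication. Shares called were 28.6% for heat shock, 23.8% for endoplasmic reticulum, 15.6% for proteasome, 24% for apoptosis and 30.8% for DNA replication genes. These lie below the 34.6% of all genes, whereas autophagy had 50% and the V-ATPase list 63.9%. Several of the steepest risers had no list. CG42397 (chromosome 3L, 11973085 to 11973790, minus strand) lay at 42.3 to 73.1 CPM at 6 cycles and 122 to 453 CPM at 12 cycles, and CG13947 (2L, 779173 to 779655, plus strand) at 24 to 46.8 and 107 to 313 CPM. CG10912 changed by 1.84 and CG32284 by 2.99, each without overlap. The acyl-CoA-binding protein gene Acbp6 changed by 1.88, with overlap. The gene nebu rose by 0.95 (SE 0.0579, edgeR adjusted p = 3.06e-08), from 188 to 281 CPM to 375 to 546 CPM. An identifier that the annotation does not pair with a name, FBgn0028519, changed by 3.35.

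Within each point the same comparison is 4 libraries against 4, and the points share no library. At the high point 2317 of 15599 genes (14.9%) were called, 1058 higher (6.78%) and 1259 lower (8.07%). At the low point it was 3476 (22.3%), 2021 higher (13%) and 1455 lower (9.33%). A total of 1488 genes were called at both, 64.2% of those at the high point and 42.8% of those at the low point, and 1482 of them changed in the same direction. Across all genes the 2 sets of changes had a Pearson r of 0.39 and a Spearman rho of 0.55, given as a description since genes are not independent replicates. A fit of the high-point libraries alone called 1453 genes. Leaving out the low-point library numbered 3 at 6 cycles reduced the low-point count to 2291.

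A test of the difference between the points called 34 genes (0.218%). In 6 of them (0.0385%) the signed change was higher at the high point and in 28 (0.179%) it was higher at the low point, and 1359 passed an unadjusted threshold of 0.05. ImpL2 was 36.8 to 51.3 CPM at the younger high point and 114 to 164 CPM at the older high point, but 86.5 to 103 CPM and 103 to 136 CPM at the low point. Its change was 1.62 at the high point and 0.30 at the low point (difference 1.31 on the log2 scale, edgeR test). AGBE, the glycogen branching enzyme, moved in opposite directions. It was 180 to 208 CPM against 125 to 148 CPM at the high point (-0.50), and 183 to 190 CPM against 213 to 300 CPM at the low point (0.38). UGP, which makes UDP-glucose, changed by -0.01 and 0.73. CG8665 changed by 0.14 and 2.03, CG15784 by 0.21 and 1.30, FBgn0030737 by 0.16 and 1.15, Atg13 by 0.11 and 0.59, and JhI-26, a juvenile hormone inducible gene, by -0.40 and 0.45. These differences rest on few libraries. Leaving 1 out gave 13 to 60 calls, DESeq2 gave 172, and the fit with the library number as a block gave 1.

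**Figure D3:**
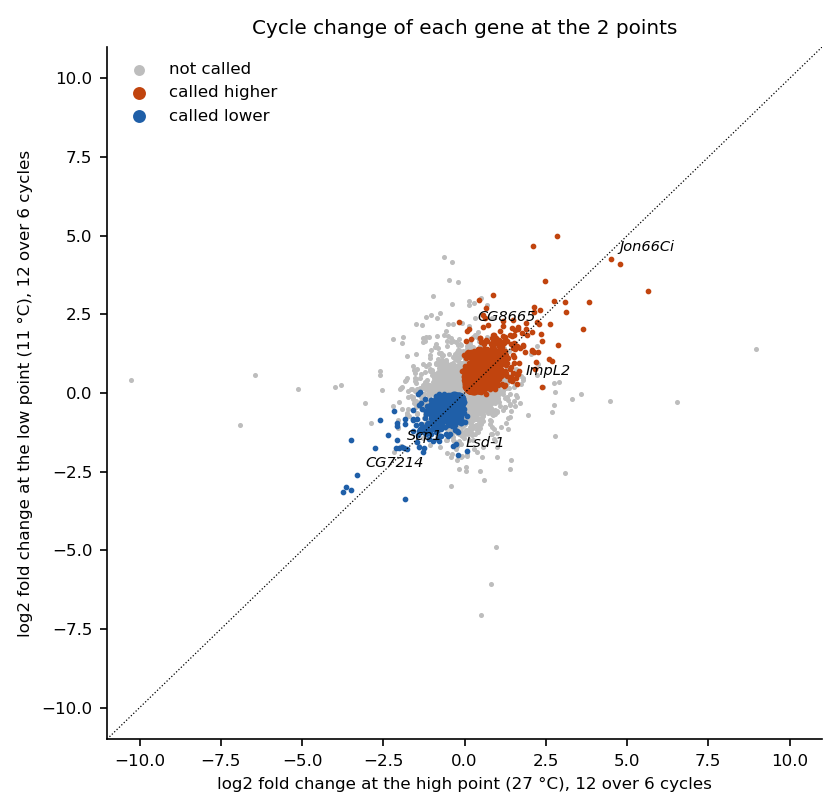
Log2 fold change from 6 to 12 cycles at the high point (x axis) and at the low point (y axis) for each gene tested in fluctuating males. Orange and blue genes were called in the comparison over both points, and the dotted line marks equal change. ImpL2 (1.62 and 0.30) and CG8665 (0.14 and 2.03) lie away from that line, whereas Scp1 (-2.03 and -1.76) lies close to it.

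The like comparison in males at constant 19 °C asks how far the change goes with the cycling temperature. With all 16 constant males 2428 genes (15.9%) were called, 1364 higher (8.91%) and 1064 lower (6.95%). Without the library holding female transcripts it was 4536 (29.5%), 2264 higher (14.7%) and 2272 lower (14.8%). Of the 5326 genes called under fluctuation, 3053 were also called in those 15 constant males (57.4% of the former, 67.4% of the latter), and 3045 of these changed in the same direction. Over genes called under fluctuation, 94.2% had the same sign and the median size was 0.29 under fluctuation and 0.25 at constant temperature. Scp1 changed by -1.77, CG7214 by -3.44, Gapdh1 by -1.09 and Miox by 1.57 at constant temperature (each under edgeR adjusted p of 0.05). By list, 64 of 91 oxidative phosphorylation genes fell and 0 rose, 63 of 83 ribosomal protein genes rose and 1 fell, 27 of 53 digestive genes rose and 1 fell, 22 of 30 muscle genes fell and 1 rose, and 30 of 65 seminal fluid genes fell and 2 rose.

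A test of the difference between regimes called 4 of 15672 genes (0.0255%) with all libraries and 6 of 15737 (0.0381%) without the library holding female transcripts. With all libraries 1 was higher under fluctuation (0.00638%) and 3 lower (0.0191%), and without that library 2 (0.0127%) and 4 (0.0254%). At an unadjusted threshold of 0.05 the counts were 1549 and 1540, and DESeq2 called 29 and 58. Fbp1, a larval serum receptor of the fat body (chromosome 3L, 14094589 to 14098053, minus strand), was among them. Under fluctuation it lay at 0 to 0.283 CPM in the younger and 0.12 to 2.75 CPM in the older males. Constant males held 0 to 39.2 CPM (median 7.45) at 6 cycles and 0 to 0.226 CPM at 12 cycles, so the fold rests on libraries at or near 0. The fitted change was -6.80 without the library with female transcripts (difference 9.33, SE 1.21, edgeR adjusted p = 0.000284). CG13658 rose by 0.31 under fluctuation and by 0.72 at constant temperature (difference -0.43, edgeR adjusted p = 0.0177). Several genes of the insulin, lipid and hormone lists were called under fluctuation but not at constant temperature, and their differences missed the threshold. ImpL2 changed by -0.10 at constant temperature (difference 1.04, SE 0.252, edgeR adjusted p = 0.137), and Thor by -0.11 (difference 0.86, SE 0.242, edgeR adjusted p = 0.23). For Eip75B the change was -0.02 (difference 0.54, edgeR adjusted p = 0.24), for Lsd-1 0.34 (difference -1.45, edgeR adjusted p = 0.349), and for bmm 0.49 (difference 0.76, edgeR adjusted p = 0.387).

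**Figure D4:**
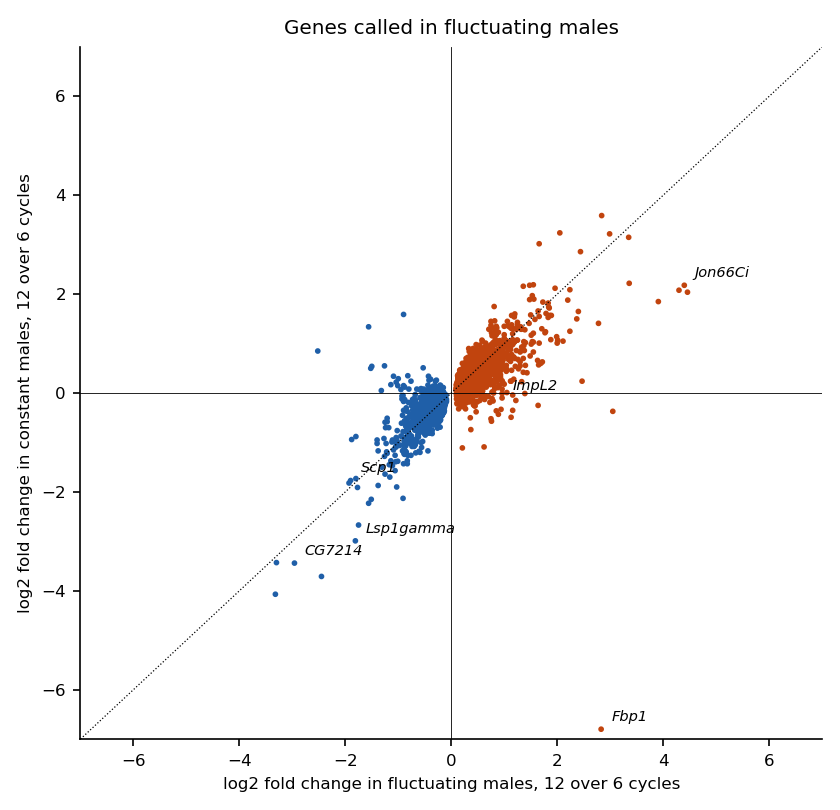
Log2 fold change from 6 to 12 cycles in fluctuating males (x axis) and in constant males without the library holding female transcripts (y axis), for genes called in fluctuating males. Colours give the direction under fluctuation and the dotted line marks equal change. Of these genes 94.2% have the same sign on both axes, and Fbp1 (2.83 and -6.80) lies farthest from the line.

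Females of the same regime showed fewer calls, 977 of 12628 genes (7.74%), 419 higher (3.32%) and 558 lower (4.42%). Over the 12410 genes tested in both sexes, 530 were called in both, 54.8% of the female calls and 12.3% of the male calls among those genes, and 516 changed in the same direction. Scp1 changed by -1.93 in females, CG7214 by -3.14, Mpcp1 by -1.45 and Act88F by -2.18 (each under edgeR adjusted p of 0.05). In females 64 of 82 oxidative phosphorylation genes fell and 0 rose, and 24 of 30 muscle genes fell at a median of -0.59. Of 53 digestive genes 14 rose and 0 fell. Of 82 ribosomal protein genes 0 were called in either direction by edgeR, at a median of -0.02, and 3 were higher and 1 lower at an unadjusted threshold of 0.05.

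The count of genes that differed between the sexes was unstable. With TMM 2851 genes were called (18.2%), 2599 with a higher change in males (16.6%) and 252 with a lower one (1.61%), at a median over all genes of 0.15. Relative log expression scaling gave 952 and total counts 1060, at medians of 0.04 and 0.05. With TMM and any 1 of the 16 male libraries left out, 275 to 534 genes were higher and 399 to 1047 lower, with more lower than higher in each of these fits and medians of -0.03 to 0.02. No direction is therefore read from the counts. Of the 15693 genes in the test, 12410 passed the filter in each sex's own fit, and the others include genes near 0 in females. Among those 12410, 308 genes were called in the same direction under all 3 scalings and without each male library, 170 with a higher change in males and 138 with a lower one. Ribosomal protein genes tested in each sex passed with a higher change in males in 72 of 82 under TMM, but in 2 to 58 when a male library was left out, and 0 passed the other way. For muscle genes the higher count was 18 of 30 and 5 to 11, and for digestive genes 17 of 53 and 5 to 10. Among single genes of the 308, Jon66Ci changed by 4.40 in males and 0.93 in females, l(2)efl by 0.60 and -0.02, and bmm by 1.27 and 0.43. ImpL2 changed by 0.96 and 0.04. InR, at 0.81 and 0.16, passed under the 3 scalings but in 11 of the 16 fits that leave out a male library. Lsp1beta changed by -1.56 in males and 1.05 in females. Gapdh1 fell in both sexes, by 1.05 and 0.59 on the log2 scale, and fln by 0.89 and 1.52.

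**Figure D5:**
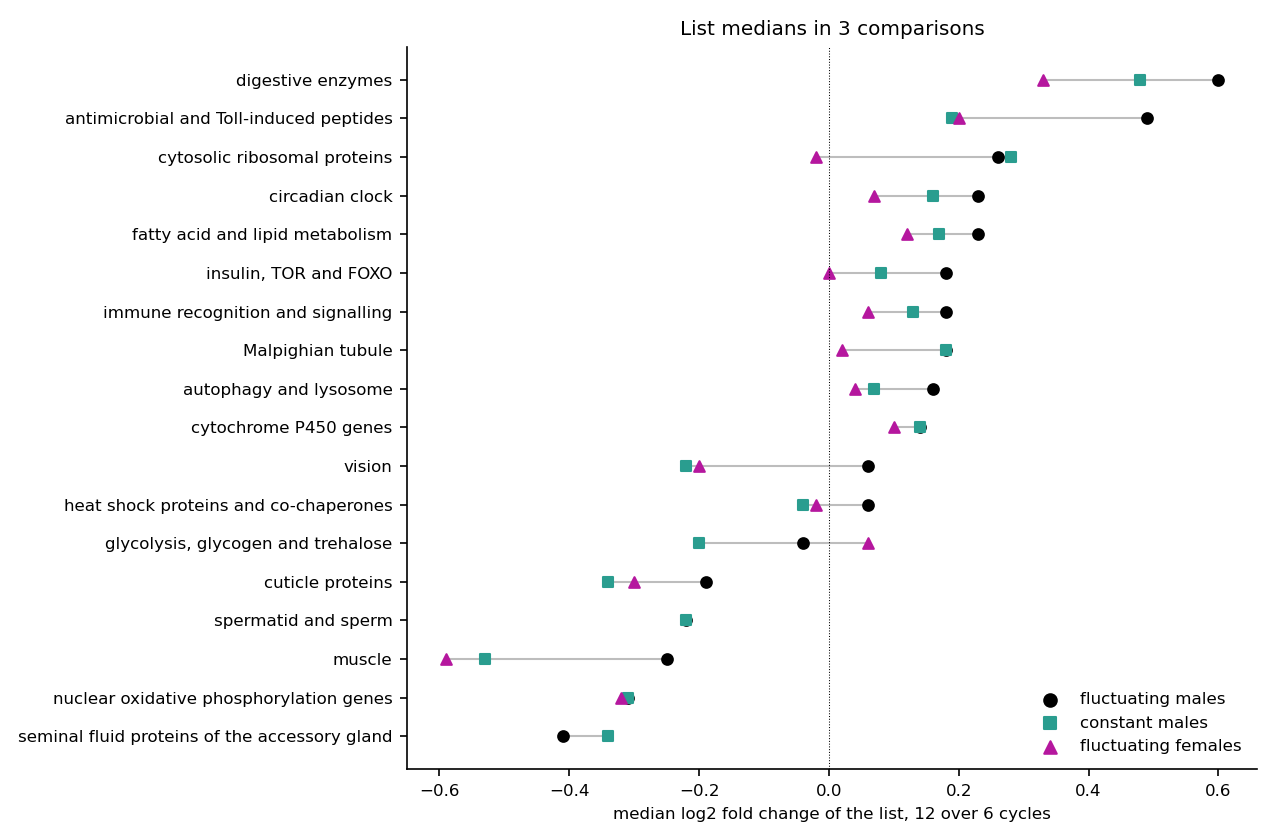
Median log2 fold change from 6 to 12 cycles over the tested members of 18 lists, in fluctuating males (circles), constant males without the library holding female transcripts (squares) and fluctuating females (triangles). Females are not drawn for seminal fluid and sperm genes. Oxidative phosphorylation genes have nearly the same median in the 3 comparisons (-0.31, -0.31 and -0.32), while ribosomal protein genes have 0.26 and 0.28 in males and -0.02 in females.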

How the data were processed

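The values deposited by the authors are estimated counts per gene, not scaled for depth, for 17697 gene identifiers in 80 libraries. The authors' RNA was enriched with oligo(dT) beads, per the labels' protocols, and reads were handled with FastQC, Trimmomatic, HISAT2 (BDGP6) and StringTie, per the submitters' processing notes. No version or strand setting was at hand, so overlapping genes cannot be separated. Values were rounded to whole numbers. Low values favour multiples of 4 (30.9% of 29187 values of 1 to 24, against 25% if even), so 1 fragment may give several counts and counting error is larger than the totals imply. Symbols and coordinates come from Ensembl BDGP6.54, which matched 17559 identifiers.

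Tests used edgeR 4.0.16 (limma 3.58.1, R 4.3.3): TMM scaling, filterByExpr with a minimum count of 10, the quasi-likelihood F-test with sampling point as covariate, and Benjamini-Hochberg adjustment over all genes tested at 0.05. Alternatives used DESeq2 1.42.0, limma-voom, other scalings and omitted libraries. On simulated counts of the fluctuating males, 76% of genes changed by 0.5 (log2) and 97% of those changed by 1 were recovered. Each size was set in 100 genes, drawn only from well-expressed ones, so the rates do not hold for low counts. Apart from the set changes, the simulated means did not differ between points, regimes or sexes. Recovery was 17% and 79% for the difference between points, 50% and 90% between regimes, and 52% and 87% between sexes, so small differences can be missed. Replicates were not duplicates, with chi-square per gene of at least 44.8 over 24 pairs. Named genes were the 15 largest rises and 15 largest falls with a mean of at least 5 CPM and the same sign at both points, up to 4 per list, and the 10 smallest p-values of each difference test. Others, such as the further list members given as examples, were chosen after their values were seen. The comparison and the 39 lists were chosen with earlier results of these data known, and lists are described by counts and medians, not tested.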

Additional observations from a re-analysis of the deposited data

Results flagged for a closer look

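A library that stood far from the other 3 of its group was found in 39 of 400 sets of 4 (Dixon's criterion). The criterion's nominal rate is about 1 in 20, for independent sets of normally distributed values. Here the values were untransformed CPM and the genes share libraries, so no excess over that rate is read from the count. The high-point library numbered 6 at 12 cycles had 8 of the 39. It was high for FBgn0028519 (26.2 CPM against 6.34 to 9.12), Sardh (81.7 against 35.4 to 36.9), Cyp28d1 (353 against 280 to 289), Thor (332 against 234 to 250), Fbp1 (2.75 against 0.12 to 0.24) and eEF1gamma (853 against 752 to 768), and low for Nplp3 (91.1 against 123 to 129) and CG13658 (19.9 against 22.6 to 23.1). Library 5 of that group was high for 3 antimicrobial peptides, Drsl2 (36.5 CPM against 0.818 to 4.17), Dro (211 against 17.2 to 20.4) and Mtk (76.3 against 7.63 to 12.8), and low for JhI-26 (34 against 37.6 to 38). In library 7 Mal-A1 lay at 3190 CPM, and in library 8 Pepck1 lay at 21.9, Prosalpha4T2 at 33.2 and sug at 13.9 CPM.

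At the high point of 6 cycles, library 1, which also stood apart on the third component, was high for Drsl2 (4.73 CPM), CG7203 (21.1), RpL9 (741) and RpS20 (460) and low for InR (15 against 29.2 to 31.6 CPM). Library 2 had CG15784 at 99.9 CPM, and library 4 had Cpr47Ea at 2.63 and aub at 6.69 CPM. At the low point of 12 cycles, library 5, which held the most female transcripts of the fluctuating males, had Drsl2 at 121 CPM against 2.82 to 7.5, CG32284 at 12.5, Acbp6 at 21.9 and TpnC41C at 48.6 CPM. Library 6 had ry at 91.5 CPM. Library 7 had lncRNA:CR43239 at 23.5, Obp56d at 431 against 57.5 to 69.9, and Pepck1 at 76 CPM. At the low point of 6 cycles, library 1 had PGRP-SC1b at 13.1 and nebu at 219 CPM, library 3 had RpS20 at 377 CPM, and library 4 had Drsl3 at 1.23, ATPsynC at 1290 against 1910 to 2010, Eip75B at 100 and Fbp1 at 0 CPM.

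The change differed between points, by the test of the difference, for ImpL2 (1.31, high minus low), Atg13 (-0.48), UGP (-0.75), FBgn0030737 (-0.99), AGBE (-0.88), CG15784 (-1.09), CG8665 (-1.89) and JhI-26 (-0.85). It differed between regimes, with all libraries in, for Fbp1 (8.95, fluctuating minus constant) and CG13658 (-0.45). It differed between sexes under all 3 scalings and without each male library, among genes tested in each sex, for the following genes, given as male minus female change with TMM. The gut genes were Jon66Ci (3.53), Cht4 (1.44) and Muc68E (1.49). Immune and stress genes were Drsl3 (5.02) and l(2)efl (0.68). Metabolic and signalling genes were Cyp6t3 (1.25), bmm (0.90), Gapdh1 (-0.41), ImpL2 (0.98) and Lsp1beta (-2.55). The remaining ones were eEF1gamma (0.43), fln (0.68), ple (-0.59), CG42397 (2.68), CG34327 (-0.81), nebu (0.73) and FBgn0028519 (2.92). Relative log expression and total-count scaling gave lower values for each of these genes. They were 0.32 and 0.33 for eEF1gamma, and -0.52 and -0.51 for Gapdh1.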

How the results depend on the processing

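Every alternative to the comparison of 12 with 6 cycles stayed within 1.5 times of 5326 calls: 5382 under relative log expression scaling, 5218 without a filter, 5842 by DESeq2, 5408 by limma-voom, 4171 in a fit of all 32 males, 3635 without the covariate, and 6054 without the 2 libraries apart. Total counts, thinning, the omission of the 2 libraries and of constant low-point library 2, the leave-one-out fits of the constant, female and sex comparisons, and the restriction to genes tested in each sex were chosen after seeing the data. No named gene changed sign where the reported or the alternative fit called it. Uncalled genes near 0, such as JhI-26 (-0.06 to 0.15 over both points), did change sign between fits. Fits without 1 library gave 4606 to 5850 calls over both points, 1585 to 2252 at the high point, 2291 to 3783 at the low point, 13 to 60 for the difference between points, 1872 to 4536 in constant males, 1 to 5 for the difference between regimes (each fluctuating male library left out; 6 without constant low-point library 2), 654 to 1387 in females and 748 to 1581 for the difference between sexes, with more lower than higher in all 16. The difference between regimes fell to 1 without fluctuating low-point library 2 (6 cycles) or 5 (12 cycles), and to 2 without library 3 (6 cycles). The high-point libraries alone gave 1453. DESeq2 gave 172 for the difference between points, 29 between regimes (58 without constant low-point library 2), 1641 between sexes and 1504 in females. The difference between sexes gave 952 under relative log expression and 1060 under total counts. Constant males without library 2 gave 4536. The causes were not tested. No paired analysis was possible for 12 against 6 cycles because numbers 1 to 4 belong to 6 cycles and 5 to 8 to 12 cycles. With the replicate number as a block, the difference between points gave 1 call, between regimes 1 and between sexes 784 (219 higher and 565 lower). Same-numbered libraries deviated little together over all genes (correlations from -0.035 to 0.065 across points, -0.125 to 0.125 across regimes and -0.062 to 0.059 across sexes). Across regimes 2 of 16 such pairs were over 0.1. A correlation over all genes cannot decide whether the number marks a shared unit that acts on some genes. This was not tested.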

Other observations

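Of 14 genes tested in the Turandot and JAK/STAT list, 5 rose and 0 fell over both points, 2 rose and 0 fell at the high point, and 2 rose and 5 fell at the low point by edgeR (over both points 3 and 2 with total counts). The share called over both points was 35.7%, near the 34.6% of all genes. Of all genes, 6.78% rose and 8.07% fell at the high point, and 13% rose and 9.33% fell at the low point. Among the 5 that fell at the low point were TotA, TotB, TotC and TotX, secreted stress peptides of the Turandot family. TotA changed by -2.03 on the log2 scale (edgeR adjusted p = 0.0313), TotB by -2.04 (edgeR adjusted p = 0.00472), TotC by -2.78 (edgeR adjusted p = 0.0197) and TotX by -1.59 (edgeR adjusted p = 0.0191). Over both points TotA ranged from 125 to 770 CPM at 6 cycles and from 27.6 to 541 CPM at 12 cycles, and it was not called. At the high point TotA changed by 0.53 and TotB by 1.0, neither of them called. The difference between points missed the threshold for both (edgeR adjusted p = 0.34 for TotA and 0.0637 for TotB). These genes were picked after their values were seen.

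Of 32 proteasome genes, 10 were called higher at the low point and 0 at the high point by edgeR. Of all genes, 13% were called higher at the low point and 6.78% at the high point. The test of the difference between points called 0, with 8 lower and 0 higher at the high point at an unadjusted threshold of 0.05. Rpt3, a regulatory subunit, changed by 0.27 at the low point and 0.11 at the high point. Over both points the median of the list was 0.06, and -0.03 under total counts.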
